A study of Homo sapiens with 6 samples.

Results

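The HLA class I antigen presentation genes described here are 9 of the 17039 genes in the expression matrix, chosen by symbol: HLA-B, HLA-C, HLA-E, HLA-F, B2M, TAP1, TAP2, PSMB9 and NLRC5. The rule used gene symbols and no measured value, but it was set with earlier results of these data known. All 9 were among the 13465 genes tested, which are those averaging 0.1 FPKM or more. FPKM is a read-fragment count scaled to transcript length and to the size of the library. The study compared 231-BR cells with MDA-MB-231 cells in a search for genes connected with brain metastasis of breast cancer. MDA-MB-231 is an established human triple-negative breast cancer line, and 231-BR is its brain-seeking derivative. Poly(A) RNA of each line was sequenced in 3 libraries. 231-BR was grown in DMEM with 10% serum, antibiotics and 200 µg/mL G418, whereas MDA-MB-231 had the same medium without G418, so the line and the drug cannot be told apart. Each group is 1 cell line in culture. Its libraries are described as independent samples or parallel replicates, with nothing on separate cultures, so p-values measure the spread between these libraries.

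Class I molecules carry short peptides from inside the cell to its surface, where CD8+ T cells and natural killer cells read them. The peptides are cut by the proteasome, whose immunoproteasome form contains PSMB9, are pumped into the endoplasmic reticulum by TAP1 and TAP2, and are loaded onto a heavy chain (HLA-B, HLA-C, HLA-E, HLA-F and others) paired with beta-2-microglobulin, the product of B2M. NLRC5 is a coactivator of these genes. It has no DNA-binding domain of its own and works through the RFX, CREB/ATF and NF-Y proteins bound to the X and Y boxes of class I promoters, beside an interferon element and an NF-kB element.

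The promoters of the heavy chain and light chain genes are shown before their values because NLRC5 acts through these elements and the genes differ in which of them stand before the RefSeq start. RefSeq windows were matched for 7 of the 9 genes, the exceptions being HLA-E and NLRC5. Each line below holds the 250 bases before the RefSeq start on the gene's own strand (GRCh38.p14). Capitals mark, on either strand, the interferon element (TTTCNN followed by TTTC or by TTC), the NF-kB consensus, the X2 core (TGACG, or CGTCA when reversed) and the Y box (ATTGG, or CCAAT when reversed). HLA-B lies at chr6:31357180-31357429 on the minus strand, HLA-C at chr6:31272093-31272342 on the minus strand, HLA-F at chr6:29723184-29723433 on the plus strand, and B2M at chr15:44711267-44711516 on the plus strand.
HLA-B: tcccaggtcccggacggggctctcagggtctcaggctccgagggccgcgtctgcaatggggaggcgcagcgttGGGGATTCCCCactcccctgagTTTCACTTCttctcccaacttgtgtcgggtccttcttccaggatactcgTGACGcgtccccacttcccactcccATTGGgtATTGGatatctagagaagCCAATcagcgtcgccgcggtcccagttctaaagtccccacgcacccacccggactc
HLA-C: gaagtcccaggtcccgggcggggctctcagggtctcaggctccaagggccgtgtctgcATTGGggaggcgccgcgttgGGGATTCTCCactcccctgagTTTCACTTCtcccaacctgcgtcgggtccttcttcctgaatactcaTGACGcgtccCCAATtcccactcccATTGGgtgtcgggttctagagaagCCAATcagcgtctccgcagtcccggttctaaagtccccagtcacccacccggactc
HLA-F: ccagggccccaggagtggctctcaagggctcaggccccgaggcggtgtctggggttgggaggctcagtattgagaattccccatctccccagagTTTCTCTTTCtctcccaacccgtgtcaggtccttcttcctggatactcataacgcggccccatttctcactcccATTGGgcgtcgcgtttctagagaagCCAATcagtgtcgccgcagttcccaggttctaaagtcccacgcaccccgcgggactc
B2M: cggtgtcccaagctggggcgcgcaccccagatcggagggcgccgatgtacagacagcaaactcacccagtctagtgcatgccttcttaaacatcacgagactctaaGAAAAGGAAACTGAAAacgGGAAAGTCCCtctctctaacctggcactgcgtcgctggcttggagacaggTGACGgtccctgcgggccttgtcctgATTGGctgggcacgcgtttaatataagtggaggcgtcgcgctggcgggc
HLA-B, HLA-C and B2M each held an X2 core followed by a Y box at 15 to 25 bases, an arrangement found in 0.407% of the 35116 windows of the reference table. HLA-F held Y boxes and an interferon element but no TGACG in this window. The GENCODE locus of HLA-F given below begins at 29722775, so the whole HLA-F window lies inside that locus. The GENCODE loci of HLA-B and B2M overlap the ends of their windows. Singly, an interferon element stood in 9.08% of all windows, the NF-kB consensus in 5.21%, an X2 core in 21.2% and a Y box in 32.0%. In the B2M window the adjoining interferon matches overlap by 4 bases, and in the HLA-B window the NF-kB matches overlap by 9. A match describes letters in the window and is not a site.

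TAP1 and PSMB9 are shown for a further reason: they start back to back, with 487 bases between the nearest RefSeq starts, and their values differed in opposite directions, although the PSMB9 call was lost in some settings. RefSeq also gives TAP1 a start further from PSMB9, whose window held none of the elements. The TAP1 window lies at chr6:32853705-32853954 on the minus strand, and the PSMB9 window at chr6:32853942-32854191 on the plus strand. The windows share 13 bases. The GENCODE locus of TAP1 given below reaches 32853978, so the whole TAP1 window lies inside that locus. The GENCODE locus of PSMB9 overlaps the end of its window. Which bases precede the start, and the distance between the starts, thus depend on the annotation.
TAP1: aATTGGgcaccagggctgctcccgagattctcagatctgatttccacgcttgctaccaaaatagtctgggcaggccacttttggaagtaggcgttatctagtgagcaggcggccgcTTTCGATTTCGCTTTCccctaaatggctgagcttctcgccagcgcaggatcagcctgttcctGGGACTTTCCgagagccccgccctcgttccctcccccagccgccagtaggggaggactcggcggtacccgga
PSMB9: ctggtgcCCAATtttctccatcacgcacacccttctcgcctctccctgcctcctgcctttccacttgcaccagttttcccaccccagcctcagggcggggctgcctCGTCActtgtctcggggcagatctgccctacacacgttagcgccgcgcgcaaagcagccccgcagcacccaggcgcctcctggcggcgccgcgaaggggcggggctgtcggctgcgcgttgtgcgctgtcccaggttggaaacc
The TAP1 window held overlapping interferon elements and an NF-kB consensus, whereas the PSMB9 window held neither and had only an X2 core and a Y box, far apart. The interferon and NF-kB matches of the TAP1 window lie between the nearest RefSeq starts of both genes. They thus also stand upstream of PSMB9, beyond the 250 bases of its window, so the windows do not show that PSMB9 lacks them. The TAP2 window held overlapping interferon elements and an X2 core, without a Y box.

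Of the 9 genes, 7 were lower and 2 were higher in 231-BR (limma, a linear model that pools the spread across genes, Benjamini-Hochberg adjusted p under 0.05). Over all tested genes the same test called 32.9% lower and 44.4% higher, so the share called lower, 77.8%, stood above the background and the share called higher, 22.2%, below it. Fold changes are given on the log2(FPKM + 0.1) scale as 231-BR against MDA-MB-231. The median log2 fold change of the 9 was -0.36, against 0.08 over all genes tested. Counting only genes whose libraries did not overlap between the lines, 7 were lower and 1 was higher, beside a background of 33.5% lower and 44.9% higher. None of the 9 passed a fold criterion modelled on that of the study (an adjusted p under 0.05 and an absolute log2 fold change over 1, with the FPKM limit of 1 applied here to the mean of each line), which 1.77% of tested genes passed downward and 4.68% passed upward. The changes in the class I genes were thus small in size, and in bulk RNA a lower level cannot be separated into fewer expressing cells or less RNA per cell.

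**Figure D1:**
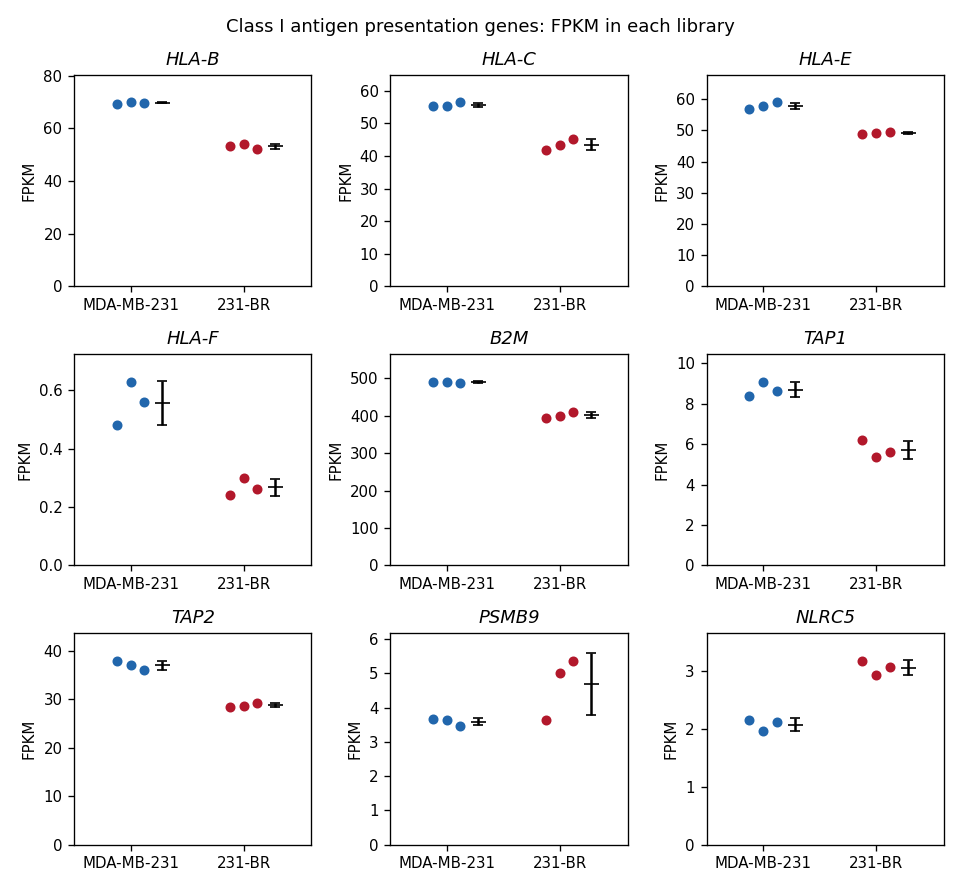
FPKM of each of the 9 genes in every library (y axes, linear and starting at 0), with MDA-MB-231 in blue, 231-BR in red, and the mean with its SD in black beside each group of 3. HLA-B, HLA-C, HLA-E, HLA-F, B2M, TAP1 and TAP2 sit lower in all 231-BR libraries, NLRC5 sits higher, and 1 of the 3 231-BR libraries of PSMB9 lies among the MDA-MB-231 values.

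Among the classical heavy chains, HLA-B, which presents peptides to CD8+ T cells, had 53.37, 54.05 and 52.23 FPKM in the 231-BR libraries and 69.38, 69.85 and 69.78 FPKM in the MDA-MB-231 libraries. Every 231-BR library was below every MDA-MB-231 library. The mean fell from 69.7 ± 0.254 to 53.2 ± 0.920 FPKM (SD, n = 3), a log2 fold change of -0.39 (SE 0.024, 95% interval -0.44 to -0.33, limma adjusted p = 1.8e-07). HLA-B was annotated at chr6:31353872-31357187 on the minus strand (GRCh38, GENCODE 29), with 8 exons.

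HLA-C, the classical heavy chain that also serves as the main ligand of inhibitory killer-cell receptors, had 41.78, 43.26 and 45.11 FPKM in 231-BR and 55.37, 55.24 and 56.47 FPKM in MDA-MB-231. The groups did not overlap. The log2 fold change was -0.36 (SE 0.032, 95% interval -0.43 to -0.29, limma adjusted p = 2.5e-06), close to that of HLA-B. The HLA-B to HLA-C ratio within a library was 1.28, 1.25 and 1.16 in 231-BR and 1.25, 1.26 and 1.24 in MDA-MB-231. These ratios overlapped and their mean log2 difference was -0.03 (exact permutation test, 2-sided, p = 0.800). HLA-C lies at chr6:31268749-31272086 on the minus strand, beside HLA-B.

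HLA-E, a non-classical heavy chain that presents leader peptides of other class I molecules to the NKG2A receptor, had 48.92, 49.30 and 49.47 FPKM in 231-BR and 56.91, 57.74 and 59.00 FPKM in MDA-MB-231. The lines were again apart, but by less. Its log2 fold change was -0.23 (SE 0.025, 95% interval -0.29 to -0.18, limma adjusted p = 1.1e-05). The HLA-E to HLA-C ratio was between 1.03 and 1.05 in MDA-MB-231 and between 1.10 and 1.17 in 231-BR, a log2 difference of 0.13 with no overlap (exact permutation test, 2-sided, p = 0.1, the smallest that 3 against 3 libraries allow). HLA-E lies at chr6:30489467-30494205 on the plus strand.

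HLA-F, a non-classical heavy chain that can reach the surface without peptide, was the lowest of the 9 genes, with 0.24, 0.30 and 0.26 FPKM in 231-BR and 0.48, 0.63 and 0.56 FPKM in MDA-MB-231. All 231-BR libraries were below all MDA-MB-231 libraries. On this log2 scale, which understates changes of low genes, the fold change was -0.84 (SE 0.15, 95% interval -1.17 to -0.50, limma adjusted p = 4.8e-04). With a pseudocount of 1 it shrank to -0.30. HLA-F per HLA-C without a pseudocount was 0.00574, 0.00693 and 0.00576 in 231-BR and 0.00867, 0.0114 and 0.00992 in MDA-MB-231. On the log2 scale the difference was -0.48 without overlap, and -0.67 with a pseudocount of 0.01. It turned to 0.06 with a pseudocount of 1, which is above every HLA-F value, so its size and sign on that scale depended on the pseudocount. HLA-F lies at chr6:29722775-29727296 on the plus strand.

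B2M, the light chain shared by all these molecules, was by far the most abundant of the 9, with 393.15, 400.44 and 409.10 FPKM in 231-BR and 491.20, 490.55 and 488.12 FPKM in MDA-MB-231. The groups did not overlap. The mean was 401 ± 7.98 against 490 ± 1.62 FPKM (SD, n = 3), a log2 fold change of -0.29 (SE 0.022, 95% interval -0.34 to -0.24, limma adjusted p = 7.2e-07). B2M lies on another chromosome, at chr15:44711487-44718877 on the plus strand. The heavy chain to light chain ratio differed between the lines by -0.10 on the log2 scale for HLA-B and -0.07 for HLA-C, in both cases without overlap (exact permutation test, 2-sided, p = 0.1 each).

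Of the 6 tested genes of the heavy chain and light chain list, 5 (83.3%) were lower and none was higher in 231-BR, beside 32.9% lower and 44.4% higher over all genes, with a median log2 fold change of -0.32. The exception was HLA-G, a non-classical heavy chain known from the placenta, with 0.16, 0.21 and 0.45 FPKM in 231-BR and 0.11, 0.52 and 0.26 FPKM in MDA-MB-231. These values overlapped between the lines and HLA-G was not called (limma adjusted p = 0.95).

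Class I genes are highly polymorphic and resemble each other, and the authors aligned reads of 100 bases to a single reference. Cut into stretches of 100 bases, the reference transcript of HLA-B and that of HLA-F shared none exactly with a transcript of another gene, HLA-C shared 0.278% and HLA-E 0.600%. How the alleles carried by these cells map to the reference was not tested.

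The transporter subunits were both lower. TAP1 had 6.23, 5.36 and 5.59 FPKM in 231-BR and 8.37, 9.10 and 8.61 FPKM in MDA-MB-231. The groups were apart, and the log2 fold change of -0.60 (SE 0.063, 95% interval -0.74 to -0.45, limma adjusted p = 1.1e-05) was the only one among the 9 past 0.58 in a gene with at least 1 FPKM in both lines. TAP1 lies at chr6:32845209-32853978 on the minus strand and has 11 exons.

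TAP2, the partner subunit, had 28.36, 28.71 and 29.28 FPKM in 231-BR and 37.96, 37.05 and 36.13 FPKM in MDA-MB-231. There was no overlap, and the log2 fold change was -0.36 (SE 0.030, 95% interval -0.43 to -0.30, limma adjusted p = 1.5e-06). The TAP1 to TAP2 ratio was between 0.187 and 0.220 in 231-BR and between 0.220 and 0.246 in MDA-MB-231, a log2 difference of -0.23 (exact permutation test, 2-sided, p = 0.1). TAP2 lies at chr6:32821833-32838780 on the minus strand. The values of TAP2 are uncertain in part, since 35.2% of the 100-base stretches of its transcript also belong to an overlapping gene model, AL669918.1.

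Most other genes of the loading machinery were lower as well. Of 10 tested genes for loading and editing, 8 (80.0%) were lower and 1 (10.0%) was higher in 231-BR, beside 32.9% and 44.4% over all genes, with a median log2 fold change of -0.55 against 0.08. TAPBP, which encodes tapasin, the bridge between TAP and the heavy chain, had a log2 fold change of -0.49. The chaperones and quality control enzymes CANX (-0.71), PDIA3 (-0.68) and UGGT1 (-0.67) were lower, as were the aminopeptidases that trim peptides in the endoplasmic reticulum, ERAP1 (-0.83) and ERAP2 (-0.50). The limma adjusted p of these genes was at most 1.0e-04, that of ERAP2. CALR, the calreticulin gene, was the 1 that was higher, with 817.16, 839.11 and 820.60 FPKM against 661.85, 653.12 and 685.56 FPKM (log2 fold change 0.31, limma adjusted p = 1.1e-06). The tapasin-related TAPBPL was not called (log2 fold change 0.20, limma adjusted p = 0.062). It was called higher in 4 alternatives, for example with libraries scaled to equal totals (0.26, limma adjusted p = 0.025), and lower with quantile normalization (-0.21, limma adjusted p = 0.040). CANX, CALR, PDIA3 and UGGT1 serve the folding of glycoproteins in general, not only class I.

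**Figure D2:**
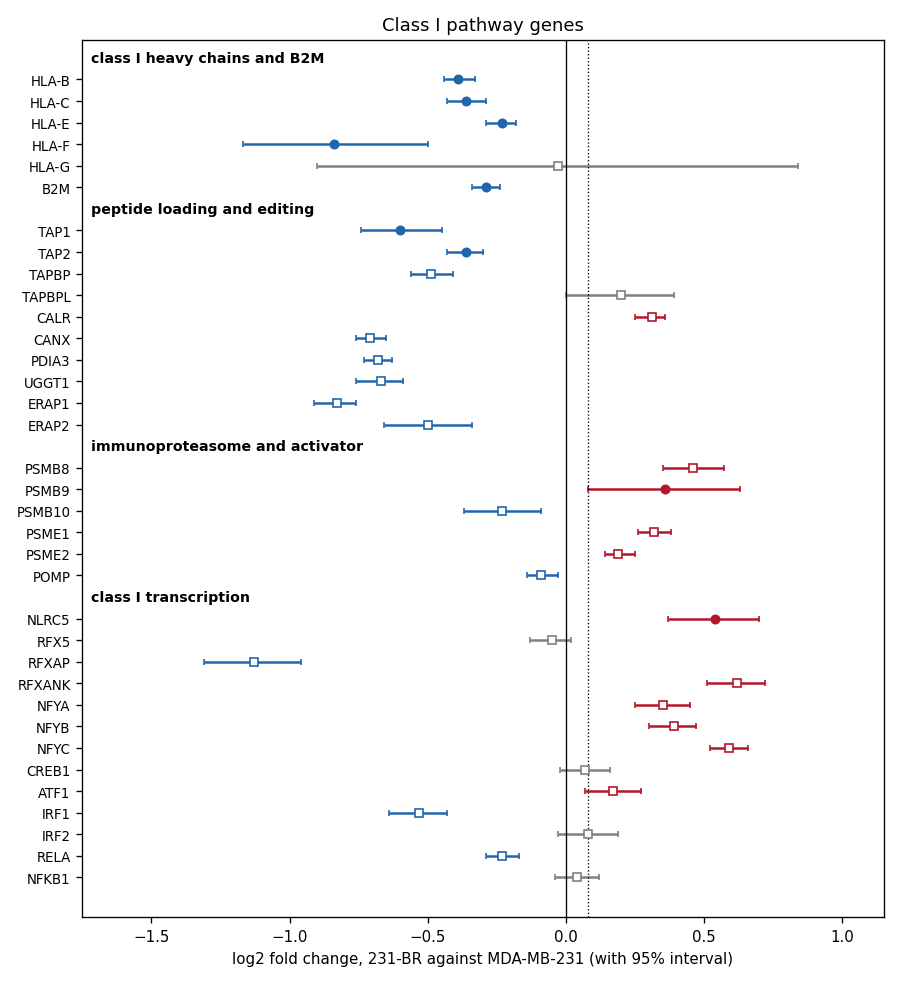
Log2 fold change of 231-BR against MDA-MB-231 (x axis, on log2(FPKM + 0.1)) with its 95% interval for the genes of 4 lists; filled circles are the 9 genes of the report, open squares other genes, blue is called lower, red called higher and grey not called, and the dotted line is the median of all genes tested, 0.08. Heavy chains, B2M and most loading genes lie left of 0, while 4 of the 6 immunoproteasome genes, NLRC5 and the NF-Y genes lie right of it.

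PSMB9, the inducible beta-1i subunit of the immunoproteasome, differed in direction from the other members that present or transport peptides. It had 3.65, 5.01 and 5.37 FPKM in 231-BR and 3.66, 3.63 and 3.47 FPKM in MDA-MB-231. The first 231-BR library lay within the MDA-MB-231 range, and the others were above it. The log2 fold change was 0.36 (SE 0.12, 95% interval 0.08 to 0.63, limma adjusted p = 0.022). This call was lost without 231-BR replicate 2 (0.30, limma adjusted p = 0.087), without 231-BR replicate 3 (0.25, 0.093) and without MDA-MB-231 replicate 3 (0.33, 0.064), and under quantile normalization the value was 0.11. PSMB9 lies at chr6:32854161-32859585 on the plus strand, next to TAP1.

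The comparison within a library does not depend on how libraries were scaled. PSMB9 per TAP1 was 0.586, 0.935 and 0.961 in 231-BR and 0.437, 0.399 and 0.403 in MDA-MB-231. Every 231-BR library was above every MDA-MB-231 library, by 0.95 on the log2 scale as means (fold 1.93, exact permutation test, 2-sided, p = 0.1). PSMB9 per PSMB6, its constitutive counterpart, was 0.0277, 0.0354 and 0.0402 in 231-BR and 0.0244, 0.0221 and 0.0208 in MDA-MB-231, a log2 difference of 0.59 with no overlap and the same p. PSMB6 itself was lower in 231-BR (log2 fold change -0.24, limma adjusted p = 4.1e-04), so part of this difference lies in the denominator.

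The other inducible subunits differed in the same direction when set against their constitutive counterparts. PSMB8 per PSMB5 differed by 0.25 and PSMB10 per PSMB7 by 0.42 on the log2 scale, both without overlap (exact permutation test, 2-sided, p = 0.1 each). Over the 11 ratios compared, the Benjamini-Hochberg value was 0.110 for every ratio but that of HLA-B to HLA-C, so no ratio could pass a threshold of 0.05 with 3 libraries a line. PSMB8 itself had 22.51, 20.60 and 22.44 FPKM against 16.53, 16.15 and 14.88 FPKM (log2 fold change 0.46, limma adjusted p = 1.2e-05). PSMB10, in contrast, was lower (-0.23, limma adjusted p = 0.0076), and its counterpart PSMB7 was lower still (-0.65). The activator subunits PSME1 (0.32) and PSME2 (0.19) were higher, and the assembly factor POMP was called lower at -0.09, a call absent with libraries scaled to equal totals and with quantile normalization (limma adjusted p = 0.50 and 0.076).

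**Figure D3:**
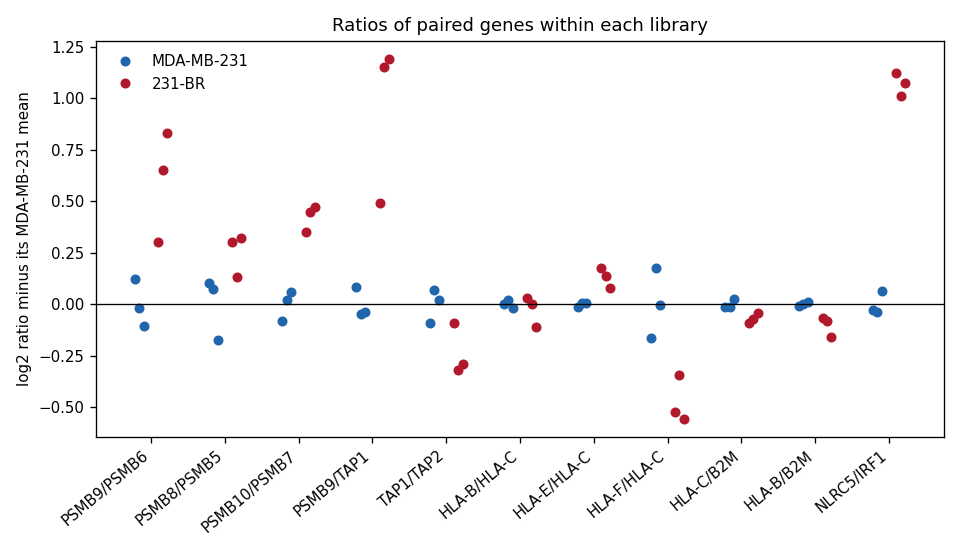
Log2 ratio of the genes named on the x axis in each library, minus the mean of that ratio in MDA-MB-231 (y axis); blue points are the 3 MDA-MB-231 libraries and red points the 3 231-BR libraries. The red points of PSMB9/TAP1 and NLRC5/IRF1 lie furthest above 0, those of HLA-B/HLA-C spread around it.

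Of the 14 subunits of the constitutive 20S core, 9 (64.3%) were lower and 2 (14.3%) were higher in 231-BR, beside 32.9% and 44.4% over all genes, with a median log2 fold change of -0.27. PSMB7 (-0.65), PSMA5 (-0.58) and PSMA1 (-0.53) were furthest from 0. Over the immunoproteasome and activator list, 4 of 6 (66.7%) were higher and 2 (33.3%) lower, with a median of 0.26. The PSMB9 and POMP calls in it depend on the setting, and the split was 4 higher and 1 lower with equal totals, 3 and 2 with median-of-ratios, and 3 and 1 with quantile normalization. Of the 5 cytosolic peptidases that trim or destroy peptides before transport, 3 (60.0%) were lower and 2 higher, among them TPP2 (-0.55), LAP3 (-0.43) and NPEPPS (0.37).

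NLRC5, the class I coactivator, was higher in 231-BR while most of the genes it acts on were lower. It had 3.17, 2.92 and 3.06 FPKM in 231-BR and 2.15, 1.95 and 2.11 FPKM in MDA-MB-231. The groups did not overlap, and the log2 fold change was 0.54 (SE 0.073, 95% interval 0.37 to 0.70, limma adjusted p = 7.0e-05), a fold of 1.45. It stayed called in all 15 alternatives, between 0.22 under quantile normalization and 0.60. NLRC5 lies at chr16:56989498-57083524 on the plus strand, with 49 exons in its longest coding transcript.

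The factors that act beside NLRC5 did not move as a group. Of 13 genes of class I transcription, 6 (46.2%) were higher and 3 (23.1%) lower, near the 44.4% and 32.9% of all genes, with a median of 0.08, the same as over all genes. The split was 9 higher and 3 lower with equal totals, and 5 and 4 with median-of-ratios and with quantile scaling. The NF-Y subunits that bind the Y box were all higher, NFYA by 0.35, NFYB by 0.39 and NFYC by 0.59 on the log2 scale. The RFX complex was split: RFXANK was higher (0.62), RFX5 was not called (-0.05, limma adjusted p = 0.19) and RFXAP was lower, with 1.20, 1.23 and 1.24 FPKM against 2.71, 3.0 and 2.71 FPKM (-1.13, limma adjusted p = 4.5e-07). RFX5 was called lower with median-of-ratios and with quantile scaling (-0.13 in both, limma adjusted p = 0.0043 and 0.0053) and had 0.02 with libraries scaled to equal totals. RFXAP was the only gene of these lists of the molecule, its loading, the immunoproteasome and transcription to pass the fold criterion. ATF1, which can bind the X2 box, was called higher at 0.17, a call lost under median-of-ratios and quantile scaling, at 0.09 in both.

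IRF1, which binds the interferon element, had 6.88, 6.82 and 6.86 FPKM in 231-BR and 10.54, 9.66 and 9.72 FPKM in MDA-MB-231 (log2 fold change -0.53, limma adjusted p = 2.7e-06). RELA, a subunit of NF-kB, was lower too (-0.23, limma adjusted p = 1.8e-05). The NLRC5 to IRF1 ratio was 0.461, 0.428 and 0.446 in 231-BR and 0.204, 0.202 and 0.217 in MDA-MB-231. That is a log2 difference of 1.07 without overlap (fold 2.10, exact permutation test, 2-sided, p = 0.1). CREB1 (0.07), IRF2 (0.08) and NFKB1 (0.04) were not called, and their direction depended on the scaling. With libraries scaled to equal totals they were called higher (0.14, 0.15 and 0.11, limma adjusted p of 0.014, 0.029 and 0.030), whereas with median-of-ratios and quantile scaling they took values of 0.00 or below and were not called.

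Genes with the X2 core and Y box arrangement in the window before the RefSeq start, other than the members, numbered 135 in the reference table of windows. Of the 87 tested, 41 (47.1%) were higher and 27 (31.0%) lower, with a median of 0.05, near the background of all genes.

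Ordered by FPKM, both lines had B2M first, then HLA-B, HLA-E, HLA-C, TAP2, TAP1, PSMB9, NLRC5 and HLA-F. In MDA-MB-231 no neighbours in this order overlapped. In 231-BR, TAP1 (5.36 to 6.23 FPKM) and PSMB9 (3.65 to 5.37 FPKM) did, and the other neighbours were apart. FPKM accounts for transcript length, so these levels can be set beside each other across genes within the limits of mapping given above.

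The HLA region of chromosome 6 was compared because 7 of the 9 genes lie there. From HLA-F to KIFC1, 95 tested genes outside the class I pathway lists were present, of which 49 (51.6%) were lower and 19 higher, with a median of -0.21. Among the 73 that averaged 1 FPKM or more, 45 (61.6%) were lower and 12 (16.4%) higher, with a median of -0.26. The 10 pathway genes of the same stretch that are reported had 7 lower and 2 higher, with a median of -0.36. The share called lower among genes of the region outside the pathway thus also stood above the 32.9% of all tested genes, and the part of this regional difference in the values of the members was not tested.

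**Figure D4:**
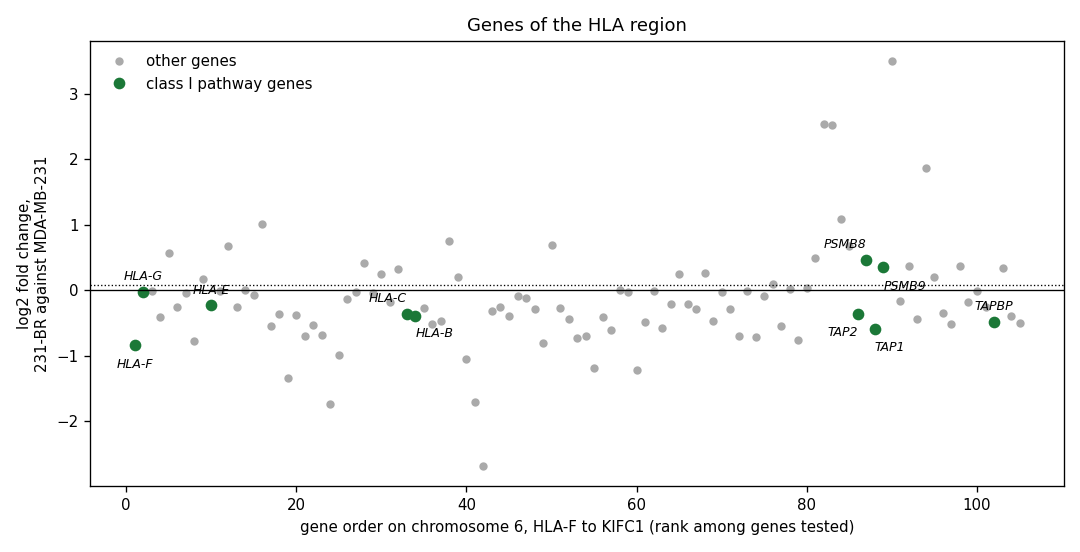
Log2 fold change of 231-BR against MDA-MB-231 (y axis) for the tested genes from HLA-F to KIFC1 in their order on chromosome 6 (x axis, rank), with class I pathway genes in green and named, and other genes in grey; the solid line is 0 and the dotted line the median of all genes, 0.08. Most grey points lie below 0, as 49 of 95 were called lower, and several class II genes near TAP2 lie above it.

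Direct neighbours of the members went both ways. MICA, next to HLA-B, was lower (-0.28), and GABBR1, next to HLA-F, was lower as well (-1.03). RPP21, next to HLA-E, was higher (0.17), and GNL1 on its other side did not differ beyond the spread (0.00, 95% interval -0.11 to 0.10). HLA-DMA, a class II chaperone gene next to PSMB9, had 1.85, 1.80 and 1.96 FPKM in 231-BR and 0.04, 0.08 and 0.11 FPKM in MDA-MB-231 (log2 fold change 3.50, limma adjusted p = 2.4e-08). HLA-DOB, next to TAP2, was also higher (0.67, limma adjusted p = 0.021). Around B2M, 9 of 20 genes were lower and 7 higher, with a median of 0.00, and around NLRC5, 7 of 20 were lower and 10 higher, with a median of 0.06. Among those averaging 1 FPKM or more, the counts were 8 lower and 4 higher around B2M and 4 lower and 10 higher around NLRC5. Over all genes with that limit, 3949 were lower and 5063 higher. The numbers tested with that limit are not given here, so these counts cannot be compared as shares.

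Interferon-responsive genes were described because class I genes respond to interferon. Of 26 tested, 18 (69.2%) were higher and 5 (19.2%) lower, beside 44.4% and 32.9% over all genes. Their median log2 fold change was 0.73, opposite in sign to that of the heavy chains, and 0.42 with quantile normalization. BST2, or tetherin, was at 12.02, 13.92 and 10.90 FPKM against 0.04, 0.08 and 0.04 FPKM (6.34, limma adjusted p = 9.4e-11). OAS1 (3.80) and UBE2L6, the ISG15-conjugating enzyme (3.41), were the next furthest from 0. OAS1 had 2.79, 2.69 and 2.41 FPKM in 231-BR and 0.05, 0.14 and 0.11 FPKM in MDA-MB-231. The MDA-MB-231 values of BST2 and OAS1 were near or below the pseudocount of 0.1, so the sizes of these changes rest in part on it. Of the 12 genes of interferon receptors and signalling, 4 (33.3%) were higher and 4 (33.3%) lower, with a median of -0.08, among them TYK2 (1.04), SOCS1 (0.66) and IFNGR2 (-0.45). This split moved with the scaling, to 5 higher and 2 lower with equal totals, 4 and 7 with median-of-ratios, and 2 and 7 with quantile normalization.

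**Figure D5:**
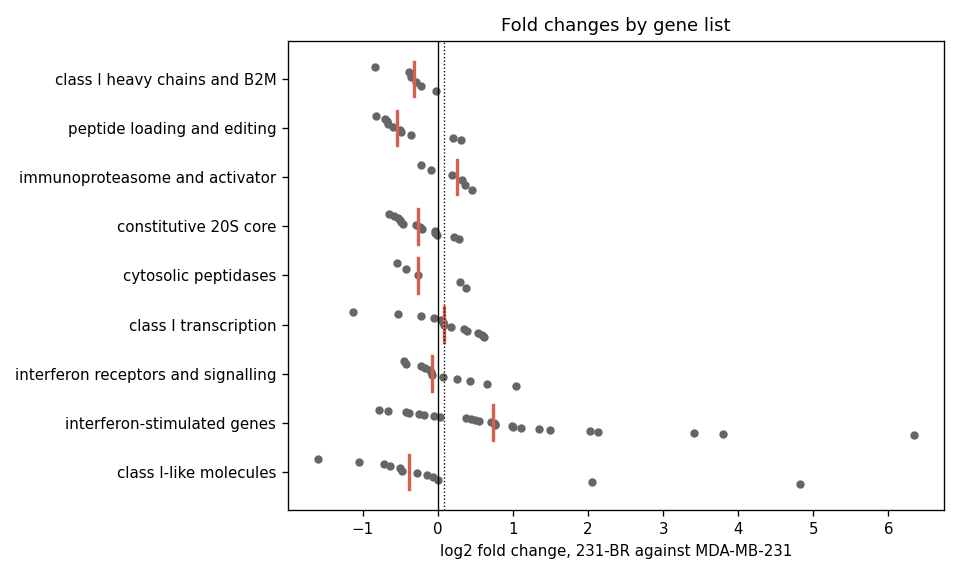
Log2 fold change of 231-BR against MDA-MB-231 (x axis) for each tested gene of 9 lists (y axis), 1 point a gene, with the median of each list as a red bar, 0 as a solid line and the median of all genes as a dotted line. The medians of the heavy chain and loading lists, -0.32 and -0.55, lie left of 0, and that of the interferon-stimulated genes, 0.73, lies right of it.

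The genes outside all lists whose profile over the 6 libraries lay nearest to the mean profile of HLA-B, HLA-C, HLA-E, HLA-F and B2M were SNRPB (Euclidean distance 0.0347 on the log2 scale), DUT (0.0351), PFN1 (0.0353), MTRF1L (0.0408) and RPL10 (0.0417). They encode a spliceosome subunit, a nucleotide hydrolase, an actin-binding protein, a mitochondrial release factor and a ribosomal protein. Their log2 fold changes lay between -0.45 and -0.41. Only these 5 of all genes tested lay within 0.0417, so none of the averaged class I genes was that near to their own mean. The averaged class I genes ranged from -0.84 (HLA-F) to -0.23 (HLA-E). Those other than HLA-F lay between -0.39 (HLA-B) and -0.23, so each of the 5 nearest genes was further below 0 than any of them. HLA-F has very low FPKM, and its value moved with the pseudocount (-0.30 with 1 and -1.03 with 0.01). The mean profile moves with it, and the nearest genes were not sought with other pseudocounts. The likeness rests on 6 libraries that mainly separate as 3 against 3.

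Across the series, the libraries of a line correlated at 0.997 or more and those of different lines at 0.902 or less (Pearson's r of log2 values across genes, and genes are no replicates). The summed FPKM was between 465020 and 472007 in 231-BR and between 486937 and 496420 in MDA-MB-231. VIM and CD44, which mark the mesenchymal MDA-MB-231, were high in both lines, with mean FPKM of 2553 and 181 in 231-BR and 2306 and 251 in MDA-MB-231. CDH1 did not exceed 0.03 FPKM. ESR1, PGR and ERBB2 were also looked up as genes taken to be low in this line. Mean FPKM in 231-BR and MDA-MB-231 was 0.927 and 0.790 for ESR1 and 0.0600 and 0.0267 for PGR. ERBB2 was higher in 231-BR, at 9.88 against 4.95 FPKM (log2 fold change 0.98, limma adjusted p = 4.0e-08). Of 9 leukocyte markers, 4 were in the matrix, and their summed level was 0.43 to 0.58 FPKM in 231-BR and 0.40 to 0.60 FPKM in MDA-MB-231. Of those, PTPRC and CD3E were at 0.04 FPKM or less in every library. CD14 reached 0.27 FPKM in 231-BR and 0.05 FPKM in MDA-MB-231, and LYZ reached 0.41 and 0.57 FPKM. Endothelial and glial markers summed to 0.44 to 0.59 FPKM in 231-BR and 0.20 to 0.29 FPKM in MDA-MB-231, mostly PECAM1.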

How the data were processed

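RNA of 6 libraries was sequenced as paired reads of 100 bases on a BGISEQ-500 after poly(A) selection. The authors filtered reads with SOAPnuke, and the submitters' processing notes name HISAT2 2.0.4, Bowtie2 2.2.5 and GRCh38.p12. The deposited values are FPKM per gene, computed by the authors; the gene annotation release is not given in the sources used here. The cell line field of the labels counts up from library to library within each line, so libraries were grouped by title. No counts were used, so the DESeq2 test of the study could not be run and depth is unknown. The strand setting is not given either, so reads of overlapping antisense genes cannot be told apart.

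From these values, log2(FPKM + 0.1) of the 13465 genes averaging 0.1 FPKM or more was fitted with limma 3.58.1 in R 4.3.3 (moderated test with a mean-variance trend, Benjamini-Hochberg adjustment over all genes tested, threshold 0.05), and ratios within libraries were compared by exact permutation. 25 symbols that had been turned into dates were restored. The limma step was checked on simulated data. Promoters came from RefSeq (GRCh38.p14) and loci from GENCODE 29. The genes and lists were chosen with earlier results of these data known. The text names all 9 members, the genes of 4 pathway lists, the 3 largest changes of the other lists at 1 FPKM or more, direct neighbours and the 5 nearest profiles. Alternatives were other pseudocounts, filters and scalings, no trend, a replicate block and leaving out each library. 1 gene of the heavy chain list is not reported here and stayed out of the counts of that list and of the HLA region.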

Additional observations from a re-analysis of the deposited data

How the results depend on the processing

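The 7 lower members and NLRC5 kept their direction and call in every alternative that tested them (HLA-F was not tested at a mean FPKM of at least 1, which leaves 6 lower). Between 1 and 2 members were called higher when single libraries were left out, and 1 without the filter, with median-of-ratios scaling, with quantile normalization and without the trend. In each case PSMB9 was the one lost, with limma adjusted p between 0.063 and 0.45. With a fold criterion of 0.58 in place of 1, 1 member passed instead of 0. The HLA-F/HLA-C difference was 0.06 with a pseudocount of 1 and -0.67 with 0.01, and NLRC5/IRF1 was 0.88 with a pseudocount of 1. Among genes that were not called, the value turned for HLA-G (0.00 with a pseudocount of 0.01, 0.02 with libraries scaled to equal totals, and -0.42 to 0.36 with single libraries left out), TAPBPL (-0.21, quantile), RFX5 (0.02, equal totals), CREB1 (-0.01 and -0.03), IRF2 (0.00 and -0.01) and NFKB1 (-0.04 and -0.01), each pair with median-of-ratios and quantile scaling. Calls were also gained, by TAPBPL in 4 settings with a positive value and with quantile normalization, by RFX5 (lower) with median-of-ratios and quantile scaling, and by CREB1, IRF2 and NFKB1 (higher) with equal totals. The loading list then had 2 genes higher in place of 1 in those 4 settings. The median of all genes was 0.08, 0.14 with libraries scaled to equal totals, 0.00 with median-of-ratios and -0.06 with quantile, and the quantile split was 4820 higher to 5737 lower in place of 5973 to 4433. The cause of these shifts was not tested.

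Replicate numbers did not pair the libraries (correlations of same-number deviations 0.087, -0.04 and -0.106), and not every library correlated best with its own number. With a replicate block, 2 members were called higher and 7 lower, as without it, and 6015 of all genes were higher and 4487 lower. Depth could not be assessed from FPKM given to 2 decimals, which limits HLA-F most.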

Other observations

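Class I-like molecules, which share the fold of the heavy chains but mostly not their peptide cargo, went both ways. Of 12 tested, 2 were higher and 6 lower in 231-BR, with a median log2 fold change of -0.38, beside 44.4% higher and 32.9% lower over all genes. FCGRT, the heavy chain of the neonatal Fc receptor, which pairs with beta-2-microglobulin, had 7.83, 8.70 and 9.41 FPKM in 231-BR and 0.21, 0.25 and 0.17 FPKM in MDA-MB-231 (4.82, limma adjusted p = 2.4e-10). HFE, a regulator of iron uptake that also pairs with beta-2-microglobulin, had 1.20, 1.35 and 1.24 FPKM against 2.48, 2.81 and 2.86 FPKM (-1.05, limma adjusted p = 1.9e-06). ULBP2, a ligand of the killer-cell receptor NKG2D, had 7.41, 7.76 and 6.99 FPKM against 12.18, 13.39 and 11.28 FPKM (-0.72, limma adjusted p = 3.2e-06). None of these 3 overlapped between the lines.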
